A study of Mus musculus with 91 samples.

Results

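The 10 mature miRNAs described here derive from 6 hairpins that lie one after another on mouse chromosome 12, from *Meg3* to just before *Rtl1*, in the *Dlk1-Dio3* imprinted locus. They are mmu-miR-770-3p, mmu-miR-770-5p, mmu-miR-673-3p, mmu-miR-673-5p, mmu-miR-493-3p, mmu-miR-493-5p, mmu-miR-337-3p, mmu-miR-337-5p, mmu-miR-540-3p and mmu-miR-665-3p, written without the mouse prefix below. They were chosen by name and position, by a rule that uses no measured value but that was set with earlier results of these data known, and are 10 of the 1504 mature miRNAs in the main count table and 10 of the 113 that it holds for *Dlk1-Dio3*. The small RNAs were sequenced by CAS-seq, a low-input small RNA library method, in 91 libraries that fall into 26 groups. The study asked how loss of DNA methylation changes miRNAs around gastrulation, and whether *Dlk1-Dio3* miRNAs take part in it.

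The 62 libraries of natural embryos form 16 groups of 4 libraries, except that E7.5 Epi control and E7.5 Epi *Dnmt*-null hold 3 each. By the methods, embryos came from males of C57BL/6J background, homozygous for *Oct4-EGFP*, and B6D2F1 females. They were dissected at E6.5 or E7.5 into extraembryonic ectoderm (Exe) and epiblast (Epi). Beside control, the genotypes were *Dnmt1*-KO, with *Dnmt1* inactivated, *Dnmt3a/3b*-DKO, with both de novo enzymes inactivated, and *Dnmt*-null, with all 3 inactivated. Per the methods, mutants were founder embryos in which a base editor injected into the zygote wrote stop codons, so that each embryo carried its own edits and no group is a line. Androgenetic haploid embryonic stem cells (AG-haESCs, haploid cells that carry a sperm-derived genome) gave 11 libraries of C57BL/6 background: 3 of WT, 3 of the line O48, 3 of a line labelled 408 and 2 labelled Mir-6KO. The labels give O48 and 408 only as line names. The methods put the miRNA deletions into O48 and the study's text puts them into AG-haESCs that lack the differentially methylated regions (DMRs) of *H19* and of *Dlk1-Dio3* (IG-DMR), so O48 is read here as such a line. In names of cells and SC embryos DKO means that pair of deletions, not the *Dnmt3a/3b*-DKO of natural embryos. Semi-cloned (SC) embryos, made by injecting AG-haESCs into oocytes of F1 females, gave 18 libraries in 6 groups of 3: WT, DKO, *Dnmt*-null and DKO;*Dnmt*-null at E6.5, and control and Mir-6KO;*Dnmt*-null at E7.5. Per the study's text the E6.5 SC libraries are of epiblast, and *Dnmt* genes of SC embryos were inactivated by the same editing. The labels do not say whether replicate libraries came from separate embryos or cultures, so the p-values measure the spread between these libraries, which may be technical.

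*Dlk1-Dio3* holds one of the largest groups of miRNA genes in mammals. Its IG-DMR is normally methylated on the paternal allele only, and *Meg3*, *Rian*, *Mirg* and the miRNAs among them are transcribed from the maternal allele, whereas *Dlk1*, *Rtl1* and *Dio3* are transcribed from the paternal allele. Dnmt1 maintains DNA methylation at replication, and Dnmt3a and Dnmt3b write it de novo. A miRNA hairpin can release a mature strand from its 5′ arm (5p) and from its 3′ arm (3p), and bases 2 to 8 of that strand, the seed, lead the pairing with target mRNAs.

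The mature sequences are shown because each miRNA was counted as its own sequence, and the seeds show whether members could act on shared sites. All 10 were found in RefSeq (GRCm38.p6) and are written 5′ to 3′ with the seed in capitals.
miR-770-5p: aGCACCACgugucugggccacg
miR-770-3p: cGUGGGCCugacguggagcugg
miR-673-5p: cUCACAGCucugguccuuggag
miR-673-3p: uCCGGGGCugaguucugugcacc
miR-493-5p: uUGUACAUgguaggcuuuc
miR-493-3p: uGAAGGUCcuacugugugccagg
miR-337-5p: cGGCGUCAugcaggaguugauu
miR-337-3p: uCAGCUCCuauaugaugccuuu
miR-540-3p: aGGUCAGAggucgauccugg
miR-665-3p: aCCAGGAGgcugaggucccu
The members are 19 to 23 nt long and no seed occurs in more than 1 of them. Of the 1275 names in the table that were matched in RefSeq, the seed of miR-673-5p also occurs in miR-6985-3p and that of miR-540-3p in miR-6915-5p, and the other 8 seeds occur in no other matched miRNA.

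The hairpins all lie on the plus strand (GRCm38). *Mir770* (chr12:109563692-109563785) lies inside *Meg3* (chr12:109541001-109571726), a maternally expressed long non-coding RNA. Of the 4 *Meg3* transcripts that span it, 1 has it in an exon and 3 in an intron. *Mir673* (chr12:109571990-109572080) begins 263 bases past the end of *Meg3*, followed by *Mir493* (chr12:109580233-109580315) and *Mir337* (chr12:109585789-109585885). *Mir540* (chr12:109586080-109586146) begins 194 bases after *Mir337*, and *Mir665* (chr12:109586314-109586407) 167 bases after *Mir540*. From the start of *Mir770* to the end of *Mir665* the stretch is 22716 bases long, and *Rtl1*, on the minus strand, ends 2785 bases further on.

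miR-540-3p was also one of the miRNAs whose genes the study cut in AG-haESCs, and the guide is shown because it overlaps the mature sequence. It matches the plus strand at chr12:109586119-109586138, and the capitals mark the 17 bases that it shares with miR-540-3p.
guide for *Mir540*: gacAGGTCAGAGGTCGATCC
The base triplet TGG follows it as the PAM, which places the expected cut after base 14 of miR-540-3p, inside the mature sequence.

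**Figure D1:**
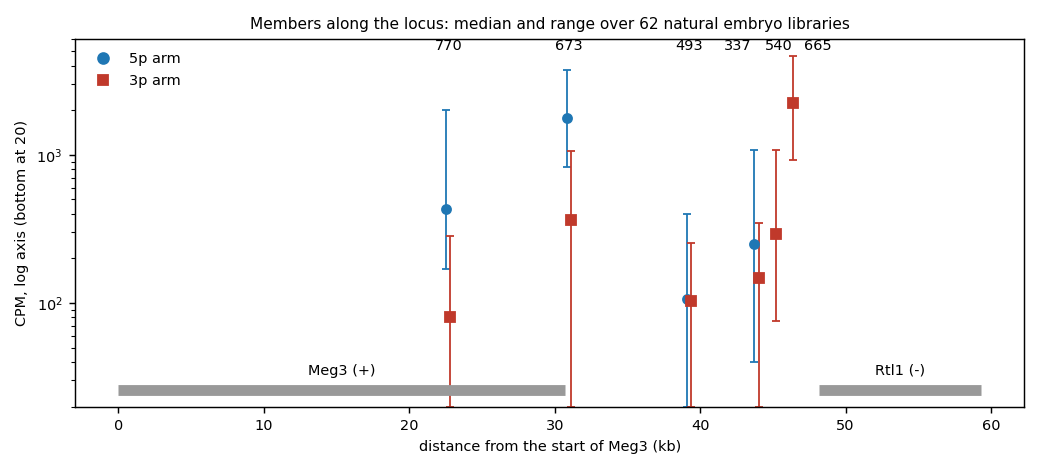
The median level of each member over the 62 natural embryo libraries is plotted in CPM (counts scaled to one common library total, log axis) against the distance from the start of *Meg3* (kb), with circles for 5p arms, squares for 3p arms, lines from the lowest to the highest library and grey bars for *Meg3* and *Rtl1*. The axis ends at 20 CPM, so lines of members with libraries below that are cut there. Arms, and the last 3 hairpins, are drawn up to about 1 kb apart from their true positions so that they can be told apart. miR-673-5p and miR-665-3p stand above the others.

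The libraries held between 45242 and 2394918 counts in natural embryos, and up to 26970637 in AG-haESCs and SC embryos. Values are given as CPM, each count divided by all miRNA counts of its library. A count of 0 allows a level of up to 3 counts, which equals 66.3 CPM in the smallest library. Low members could therefore not be measured well in the shallow E6.5 libraries, and such limits cover counting error only. All 5 miRNAs of the miR-302 cluster, the Epi markers, were in the table, and their summed level was 48473 to 212610 CPM in natural Epi libraries against 5617 to 45944 in Exe. All 10 *Sfmbt2*-cluster miRNAs, the Exe markers, summed to 32739 to 78543 CPM in Exe against 590 to 25580 in Epi. The highest Epi values of the Exe markers lay in E6.5 control Epi, and their part in the results below was not tested. In whole dissected tissue, fewer cells that make a miRNA and less miRNA per cell cannot be told apart.

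In natural embryos the 10 members held 0.335% to 1.12% of a library's counts, with a median of 0.583%, and 2.39% to 4.80% of its *Dlk1-Dio3* counts. miR-665-3p was the most abundant, with a median of 2232 CPM (915 to 4666 over 62 libraries), followed by miR-673-5p with 1767 CPM (827 to 3744). Their median ranks among all miRNAs were 78.5 and 87.25. miR-770-5p (median 430.3 CPM, 169 to 2011), miR-673-3p (365 CPM, 10.2 to 1061), miR-540-3p (293 CPM, 76.0 to 1080) and miR-337-5p (250.1 CPM, 40.04 to 1083) formed a middle range, whose ranges over all 62 libraries overlapped. Within single groups some lay apart. As a share of the members' counts, miR-770-5p took 6.62% to 9.13% and miR-337-5p 2.04% to 3.62% in E7.5 Epi *Dnmt1*-KO, with no overlap, whereas in E7.5 Exe control they took 4.91% to 6.74% and 2.73% to 5.44% and overlapped. miR-337-3p (148 CPM), miR-493-5p (106 CPM), miR-493-3p (103 CPM) and miR-770-3p (80.0 CPM) were the lowest, and their ranges overlapped as well. miR-493-3p was at 0 in 5 of the 62 libraries, miR-770-3p in 3, and miR-493-5p and miR-337-3p in 2 each. The group means of miR-540-3p ran from 155 ± 81.4 CPM (SD, n = 4) in E6.5 Exe control to 932 ± 127.1 (SD, n = 4) in E7.5 Epi *Dnmt1*-KO.

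**Figure D2:**
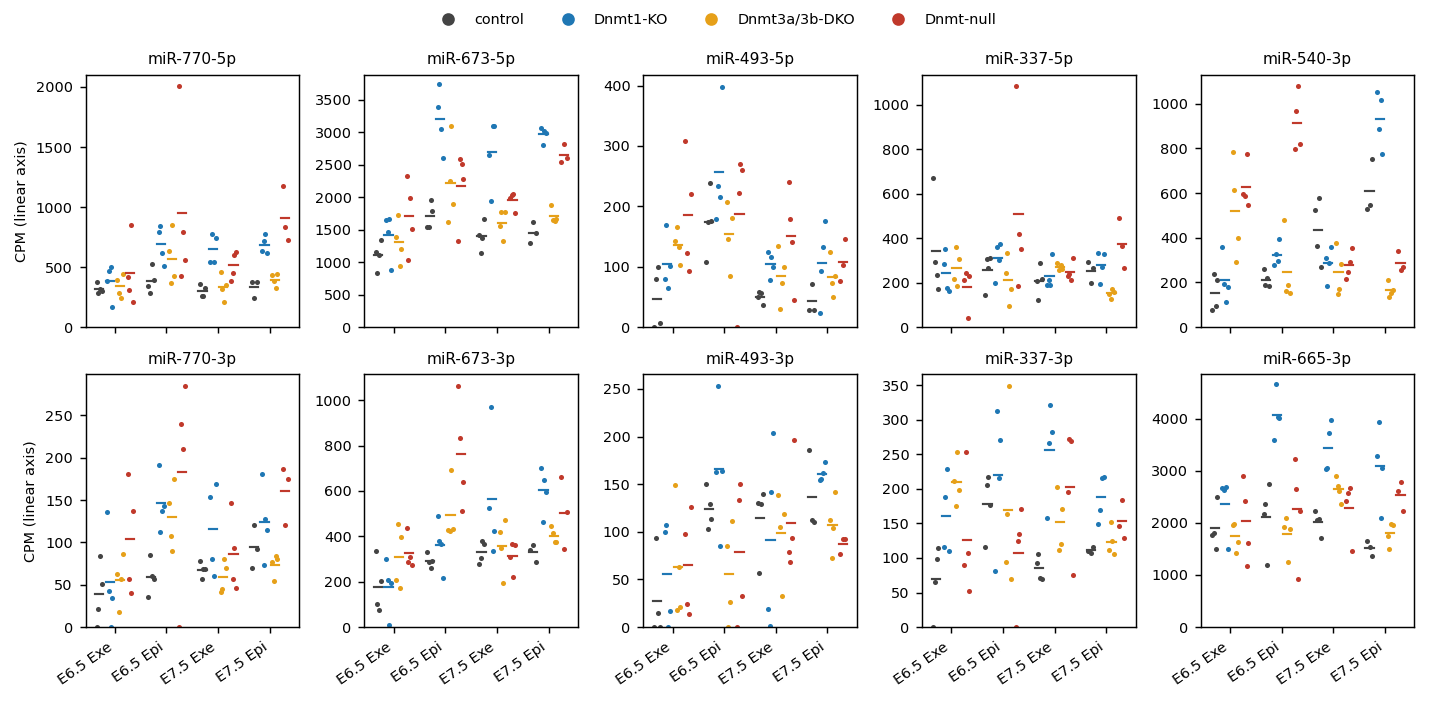
Each panel shows one member, with the level in CPM on a linear axis and the tissues and stages of natural embryos along the horizontal axis, coloured by genotype. Points are libraries and bars are group means. At E7.5 the *Dnmt1*-KO points of miR-673-5p lie at 1949 to 3091 CPM, above all E7.5 control points of that panel (1138 to 1666).

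Within control embryos, Exe and Epi were compared at each stage and the stages within each tissue, to see where members differ without any mutation. Most members did not differ between the tissues past the test. At E6.5, 2 of 10 members were lower in Exe, where 29.4% of the 558 miRNAs tested were called at an adjusted p under 0.05. miR-673-5p stood at 1156, 827, 1108 and 1336 CPM in Exe and 1547, 1536, 1959 and 1794 in Epi, with every Exe library below every Epi library (log2 fold change -0.70 ± 0.23 (SE), edgeR adjusted p = 0.0264). miR-493-3p stood at 0, 93.5, 14.8 and 0 CPM in Exe and 150.2, 103, 129.6 and 113 in Epi (log2 fold change -2.23 ± 0.79 (SE), edgeR adjusted p = 0.0413). Both calls depended on single libraries. The call of miR-673-5p was lost without Exe replicate 2 (adjusted p = 0.0905) and without Epi replicate 3 (0.0822) or 4 (0.0708), and that of miR-493-3p in 8 of 15 fits that left out 1 library, with adjusted p up to 0.0793. With only the 2 groups compared, miR-673-5p (adjusted p = 0.155) and miR-493-3p (0.127) were lost too. With no filter on low counts miR-673-5p was lost as well (0.0744). At E7.5 no member was called between the tissues by edgeR, by DESeq2 or at an unadjusted p under 0.05, where 33.2% and, unadjusted, 41.2% of all miRNAs were.

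Between the stages miR-540-3p was the only member called, and it was higher at E7.5 in both tissues. In Exe its control libraries stood at 525, 365, 578 and 268 CPM at E7.5 and 76.0, 237, 94.0 and 211 at E6.5 (log2 fold change 1.49 ± 0.39 (SE), edgeR adjusted p = 0.0137), with all E7.5 libraries above all E6.5 libraries. In Epi they stood at 528, 546 and 752 at E7.5 and 258, 189, 219 and 183 at E6.5 (log2 fold change 1.56 ± 0.40 (SE), edgeR adjusted p = 0.00676), again apart. Of all miRNAs, 14.3% were called between the stages in Exe and 26.9% in Epi. The Exe call was lost without E7.5 Exe control replicate 3 (adjusted p = 0.0508) and with only the 2 groups compared (0.0798). The Epi call was lost when the *Dlk1-Dio3* miRNAs were left out of the scaling factors (adjusted p = 0.0555). Depth and markers moved with stage. Control libraries held 65751 to 202093 counts at E6.5 and 499399 to 2069678 at E7.5 in Exe, and 281158 to 458837 and 1623256 to 2325698 in Epi. In control Epi the list of miRNAs of pluripotent cells summed to 59126 to 63078 CPM at E6.5 and 14438 to 14904 at E7.5, and that of mesenchyme or decidua to 89.4 to 139 and 369.6 to 608 CPM. The other marker lists also lay apart there. In control Exe the pluripotent list summed to 66265 to 99141 CPM at E6.5 and 41847 to 53274 at E7.5. The Epi markers there summed to 17588 to 30822 and 33368 to 45944 CPM, and the other lists overlapped. Their part in the change of miR-540-3p was not tested.

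In E7.5 Epi, each mutant genotype was compared with the same 3 control libraries, which the 3 comparisons share. miR-673-5p, miR-770-5p and miR-665-3p were higher in *Dnmt1*-KO, the first 2 of these also in *Dnmt*-null, and miR-540-3p was lower in *Dnmt3a/3b*-DKO and in *Dnmt*-null but not in *Dnmt1*-KO. All 10 members passed the filter on low counts here, and they were tested among 652 miRNAs.

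miR-673-5p, the 5′ strand of the first hairpin past *Meg3*, had 1291, 1621 and 1455 CPM in control and 3063, 2803, 3022 and 2988 in *Dnmt1*-KO. Values were 1887, 1651, 1642 and 1662 CPM in *Dnmt3a/3b*-DKO and 2539.7, 2817 and 2602 in *Dnmt*-null. The *Dnmt1*-KO and *Dnmt*-null libraries lay above all control libraries. It showed a log2 fold change of 0.84 ± 0.13 (SE; edgeR adjusted p = 0.000164) in *Dnmt1*-KO, and a log2 fold change of 0.63 ± 0.13 (SE; edgeR adjusted p = 0.00158) in *Dnmt*-null. miR-770-5p, which lies within *Meg3*, had 374, 239 and 379 CPM in control and 634, 718, 773 and 616 in *Dnmt1*-KO. Its levels were 435, 380.3, 328 and 444 CPM in *Dnmt3a/3b*-DKO and 1176, 836 and 725 in *Dnmt*-null. Here too the *Dnmt1*-KO and *Dnmt*-null libraries lay above all controls. Its value was a log2 fold change of 0.86 ± 0.23 (SE; edgeR adjusted p = 0.0179) in *Dnmt1*-KO, and a log2 fold change of 1.23 ± 0.25 (SE; edgeR adjusted p = 0.00122) in *Dnmt*-null. The *Dnmt1*-KO call of miR-770-5p was lost without control replicate 2, with a log2 fold change of 0.66 and an adjusted p of 0.104.

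miR-665-3p, the member nearest to *Rtl1*, had 1648, 1546 and 1366 CPM in control and 3282, 3933, 2097 and 3059.9 in *Dnmt1*-KO. It stood at 1752, 1495, 1979 and 1968 CPM in *Dnmt3a/3b*-DKO and 2613, 2786 and 2231 in *Dnmt*-null. It was called in *Dnmt1*-KO (log2 fold change 0.84 ± 0.19 (SE), edgeR adjusted p = 0.00414), and not in *Dnmt*-null (log2 fold change 0.51 ± 0.20 (SE), edgeR adjusted p = 0.0559), although those libraries also lay above the controls. In all, 3 members were called in *Dnmt1*-KO, where 16.3% of all miRNAs tested were, and 3 in *Dnmt*-null, where 33.7% were, so that in *Dnmt*-null the share of members was close to that of all miRNAs.

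miR-540-3p, whose sequence in the gene the *Mir540* guide overlaps, had 528, 546 and 752 CPM in E7.5 Epi control, 213, 135, 153 and 167 in *Dnmt3a/3b*-DKO and 341, 254 and 271 in *Dnmt*-null. Both mutant groups lay wholly below the controls. The result was a log2 fold change of -1.95 ± 0.23 (SE; edgeR adjusted p = 1.23e-05) in *Dnmt3a/3b*-DKO, where it was the only member called and 7.67% of all miRNAs were, and a log2 fold change of -1.31 ± 0.25 (SE; edgeR adjusted p = 0.000803) in *Dnmt*-null. In *Dnmt1*-KO its libraries stood at 1051, 887, 1015 and 773 CPM, all above the control libraries, without passing the test (log2 fold change 0.43 ± 0.23 (SE), edgeR adjusted p = 0.25). That value passed the threshold when the *Dlk1-Dio3* miRNAs were left out of the scaling factors (log2 fold change 0.75, adjusted p = 0.0323).

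The members that were not called in E7.5 Epi had log2 fold changes of -0.04 (miR-337-5p) to 1.103 (miR-493-5p) in *Dnmt1*-KO, -0.83 (miR-337-5p) to 0.87 (miR-493-5p) in *Dnmt3a/3b*-DKO and -0.87 (miR-493-3p) to 1.11 (miR-493-5p) in *Dnmt*-null.

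The median log2 fold change of the 10 members in E7.5 Epi was 0.63 in *Dnmt1*-KO, 0.11 in *Dnmt3a/3b*-DKO and 0.45 in *Dnmt*-null, against -0.15, 0.02 and -0.19 over all miRNAs tested. Of the other *Dlk1-Dio3* miRNAs, 89 were tested, and 22 were higher and none lower in *Dnmt1*-KO, 5 higher and 1 lower in *Dnmt3a/3b*-DKO, and 32 higher and none lower in *Dnmt*-null, with medians of 0.47, 0.06 and 0.58. Among these, 5, 1 and 7 of the 12 miRNAs antisense to *Rtl1* were higher. Marker lists, the Epi list among them, moved with genotype too. The list of 7 blood miRNAs summed to 64.1 to 122 CPM in E7.5 Epi control libraries. Its sums were 344 to 553 CPM for *Dnmt1*-KO libraries, 344 to 1044 CPM for the *Dnmt3a/3b*-DKO ones, and for *Dnmt*-null 828 to 1110 CPM. The Exe markers summed to 2047 to 2479 CPM in control, and to 3012 to 4102, 3003 to 5728 and 4155 to 8476 in the mutants in the same order. The list of 4 miRNAs of pluripotent cells summed to 14438 to 14904 CPM in control, and to 17299 to 26654, 15581 to 21633 and 23108 to 29547 in the mutants. The Epi markers summed to 202280 to 212610 CPM in control, and to 135940 to 200370, 193250 to 203240 and 105330 to 164940 in the mutants. Mesenchyme or decidua sums were 370 to 608 CPM in control and 231 to 747, 475 to 920 and 91.6 to 166 in the mutants. Endoderm sums were 3459 to 4174 CPM in control and 3667 to 4660, 4580.5 to 5719 and 2334.5 to 3042 in the mutants. Their part in the changes of the members was not tested.

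**Figure D3:**
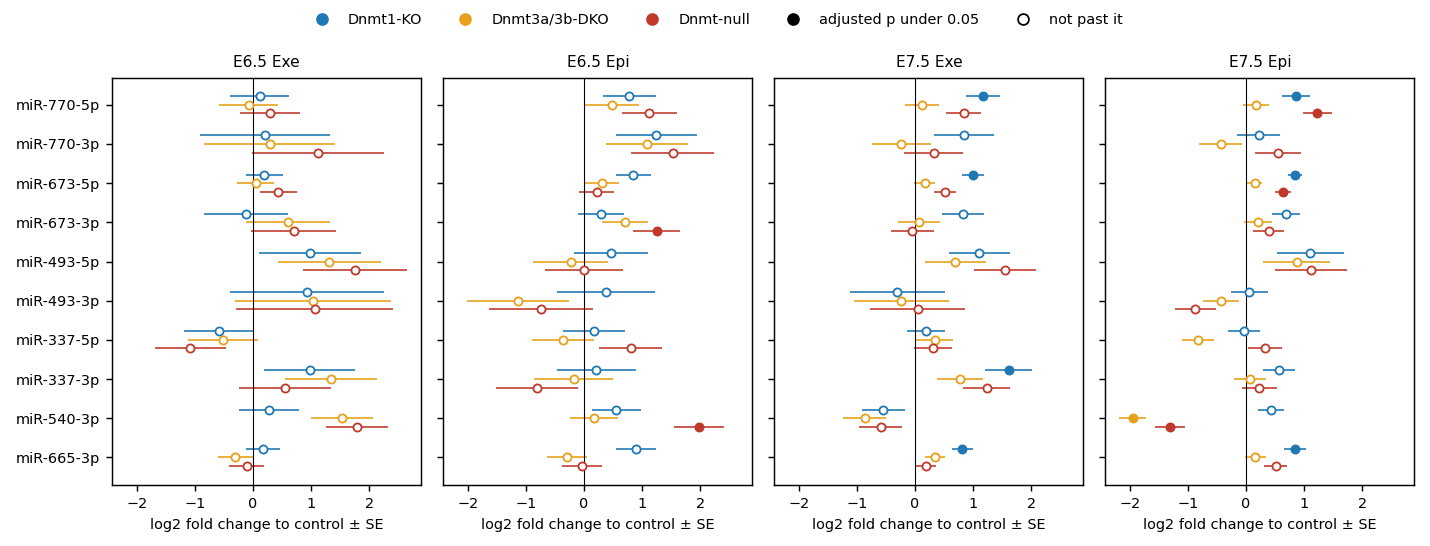
Log2 fold changes of each member against control are shown for the 3 mutant genotypes, in one panel per tissue and stage, with bars for the SE and filled points for an edgeR adjusted p under 0.05. In E7.5 Epi miR-540-3p is at -1.95 in *Dnmt3a/3b*-DKO and -1.31 in *Dnmt*-null, and in E6.5 Epi it is at 1.99 in *Dnmt*-null.

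In E7.5 Exe, 4 members were higher in *Dnmt1*-KO, and edgeR called none in *Dnmt3a/3b*-DKO or *Dnmt*-null. The 3 comparisons share the 4 control libraries. miR-673-5p stood at 2652, 1949, 3090.2 and 3091 CPM in *Dnmt1*-KO and 1423, 1138, 1377 and 1666 in control (log2 fold change 0.997 ± 0.19 (SE), edgeR adjusted p = 0.00336). miR-665-3p stood at 3036, 3056, 3727 and 3976 and 2221, 2065, 2083 and 1714 (log2 fold change 0.81 ± 0.18 (SE), edgeR adjusted p = 0.00857). For both, every *Dnmt1*-KO library lay above every control library, and both calls held under all 23 other settings. Also higher were miR-770-5p, at 545, 777, 541 and 744 against 359, 257, 259 and 328 CPM (log2 fold change 1.17 ± 0.30 (SE), edgeR adjusted p = 0.0244), and miR-337-3p, at 157, 266, 322 and 282 against 93.4, 106, 71.5 and 70.1 CPM (log2 fold change 1.61 ± 0.40 (SE), edgeR adjusted p = 0.0208). These calls were less stable. That of miR-770-5p was lost without any 1 of the control libraries or without *Dnmt1*-KO replicate 2 or 4 (adjusted p 0.0514 to 0.0813), and that of miR-337-3p without control replicate 1, 3 or 4 or *Dnmt1*-KO replicate 3 (adjusted p 0.0514 to 0.0662). With no filter on low counts miR-770-5p (adjusted p = 0.0558) and miR-337-3p (0.071) were lost too. Among the 597 miRNAs tested, 5.03% were called. The Epi markers summed to 10428 to 37250 CPM in these *Dnmt1*-KO libraries against 33368 to 45944 in control, and the Exe markers to 32739 to 48944 against 43896 to 51914, and their part in the 4 calls was not tested.

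In *Dnmt3a/3b*-DKO Exe at E7.5, edgeR and DESeq2 called 0 members and 1 had an unadjusted p under 0.05, against 3.02% of all miRNAs called and 9.38% unadjusted. In *Dnmt*-null, edgeR called 0 members and 4 had an unadjusted p under 0.05, against 9.88% of all miRNAs called and 21.1% unadjusted. DESeq2 called 4 members, and the share of all miRNAs that it called is not given. The log2 fold changes of miR-337-3p (1.23), miR-493-5p (1.55), miR-770-5p (0.84) and miR-673-5p (0.51) had edgeR adjusted p of 0.0567 to 0.0972. miR-540-3p, at 525, 365, 578 and 268 CPM in control, had 312, 185, 287 and 360.3 in *Dnmt1*-KO. In *Dnmt3a/3b*-DKO it had 378, 149, 172 and 284 CPM and in *Dnmt*-null 218, 247, 292 and 355, so that each mutant group overlapped the controls, and none was called. The members' medians were 0.83, 0.14 and 0.31 in the 3 genotypes, against -0.09, -0.09 and -0.05 over all miRNAs. Of 85 other *Dlk1-Dio3* miRNAs tested, 6, 0 and 13 were higher, with medians of 0.50, 0.35 and 0.37.

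In E6.5 Epi, miR-540-3p was higher in *Dnmt*-null, the direction opposite to that at E7.5. Its *Dnmt*-null libraries stood at 796, 966, 1080.2 and 820.0 CPM and its control libraries at 258, 189, 219 and 183, far apart (log2 fold change 1.99 ± 0.43 (SE), edgeR adjusted p = 0.00306). The call held in every fit that left out 1 library and was lost only with no filter on low counts (adjusted p = 0.0569). miR-673-3p, the less abundant strand of its hairpin, stood at 1061, 833, 510.1 and 641 CPM against 332, 288, 261 and 289.9 (log2 fold change 1.25 ± 0.40 (SE), edgeR adjusted p = 0.0448). That call was lost in 14 of the 16 fits without 1 library, all but those without *Dnmt1*-KO replicate 4 or *Dnmt*-null replicate 3, with adjusted p up to 0.13. It was also lost with no filter on low counts (adjusted p = 0.409) and with only the 2 groups compared (0.0806). Of the 409 miRNAs tested, 13% were called. The 4 *Dnmt*-null libraries were shallow, with 45242 to 123169 counts. Their Epi markers summed to 48473 to 100110 CPM against 130390 to 200350 in control. Their list of miRNAs of pluripotent cells summed to 18788 to 39547 CPM against 59126 to 63078. Ranges of the other marker lists overlapped those of control. The part of depth and markers in the 2 calls was not tested.

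In *Dnmt1*-KO Epi at E6.5, edgeR called 0 members against 0.733% of all miRNAs. An unadjusted p under 0.05 was reached by 2 members, miR-673-5p (log2 fold change 0.85) and miR-665-3p (0.89), against 12.2% of all miRNAs. DESeq2 called 1 member, with no share of all miRNAs beside it. In *Dnmt3a/3b*-DKO no member was called by edgeR, by DESeq2 or unadjusted, against 3.42% and 15.4% of all miRNAs. miR-540-3p had 279.6, 325, 294 and 394 CPM in *Dnmt1*-KO. In *Dnmt3a/3b*-DKO it had 481, 163, 187 and 154 CPM, where replicate 1 stood apart and the log2 fold change of 0.17 turned to -0.37 without it. The members' medians were 0.51, -0.01 and 0.51 in the 3 genotypes, in the same order with *Dnmt*-null last, and the sign of the second changed with the scaling. Over all miRNAs they were -0.01, -0.12 and -0.14. Past the test, 9 of 70 other miRNAs of the locus were higher in *Dnmt*-null and none in the others.

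In E6.5 Exe, whose control libraries held 65751 to 202093 counts, edgeR called no member in any genotype among 376 miRNAs tested. In *Dnmt1*-KO, 0% of all miRNAs were called, 9.04% unadjusted, and 0 members by DESeq2 or unadjusted. In *Dnmt3a/3b*-DKO these shares, all by edgeR, were 0.532% and 9.04%, and in *Dnmt*-null 0.532% and 13.6%. In each of these 2 genotypes 1 member had an unadjusted p under 0.05 and 1 was called by DESeq2. That member was miR-540-3p, with 76.0, 237, 94.0 and 211 CPM in control and 359, 191, 113 and 178 in *Dnmt1*-KO. Higher values stood in *Dnmt3a/3b*-DKO, 784, 612, 291 and 399.8, and in *Dnmt*-null, 594, 587, 774 and 548. Libraries of the last 2 genotypes lay above all controls. For *Dnmt*-null the result was a log2 fold change of 1.79 ± 0.53 (SE; edgeR adjusted p = 0.0858) (DESeq2 adjusted p = 0.00634), and it passed without *Dnmt1*-KO replicate 3 (edgeR adjusted p = 0.0403). For *Dnmt3a/3b*-DKO it was a log2 fold change of 1.53 ± 0.53 (SE; edgeR adjusted p = 0.238) (DESeq2 adjusted p = 0.0437). For *Dnmt1*-KO the log2 fold change of 0.27 turned to -0.03 without *Dnmt1*-KO replicate 1. The members' medians were 0.20, 0.45 and 0.62 in the 3 genotypes, against -0.06, -0.04 and -0.08 over all miRNAs, and of 61 other *Dlk1-Dio3* miRNAs 0, 1 and 1 were higher.

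Since miR-540-3p was higher in *Dnmt*-null Epi at E6.5 and lower at E7.5, the difference between the stages was itself tested, in a fit added after the values had been seen. The *Dnmt*-null effect on miR-540-3p in Epi differed by -3.12 ± 0.51 (SE) on the log2 scale, E7.5 minus E6.5, with an edgeR adjusted p of 0.000771 among 474 miRNAs, of which 9.49% were called. Leaving out each library gave -3.39 to -2.95 and adjusted p up to 0.00949. In Exe the same difference was -2.51 ± 0.62 (SE), with an edgeR adjusted p of 0.0633 among 425 miRNAs, of which 0.235% were called. No other member was called in either tissue. The *Dnmt*-null Epi libraries held 45242 to 123169 counts at E6.5 and 272867 to 488108 at E7.5, and the part of depth in the difference was not tested. Stage and anything else that differed between E6.5 and E7.5 libraries cannot be told apart.

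**Figure D4:**
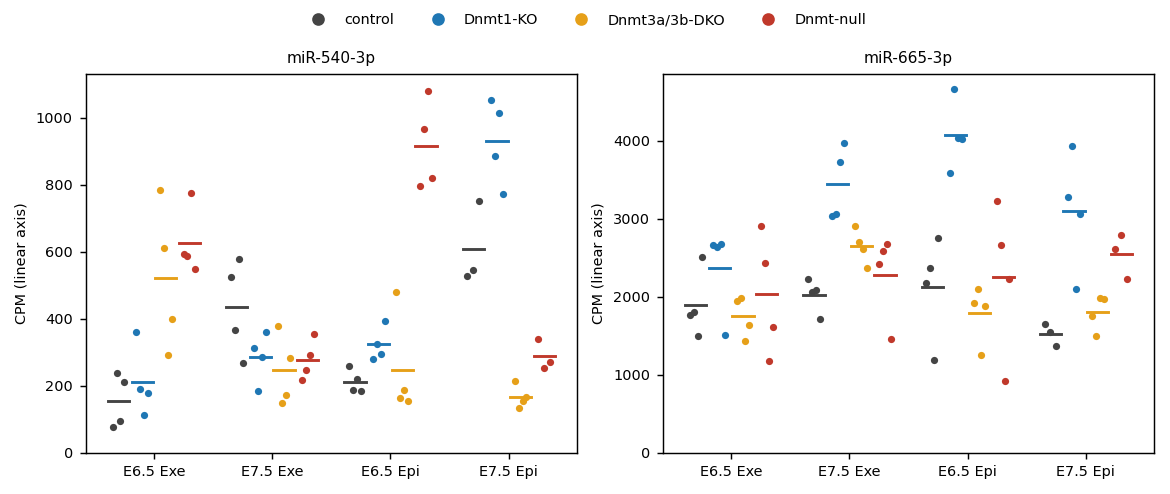
Levels of miR-540-3p and miR-665-3p in CPM (linear axes) are shown for each natural embryo library by tissue and stage, coloured by genotype, with bars for group means. miR-540-3p in *Dnmt*-null Epi stands at 796 to 1080 CPM at E6.5 and 254 to 341 at E7.5, whereas its controls stand at 183 to 258 and 528 to 752; miR-665-3p, encoded 167 bases downstream, shows no such crossing.

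miR-541-5p was singled out after its values were seen. The miRNA whose levels were most like those of miR-540-3p over the 62 natural embryo libraries was miR-541-5p, from further along *Dlk1-Dio3* (Pearson's r of log2 CPM 0.82). These correlations are descriptions over libraries that share tissues, stages, genotypes and sequencing depth. In *Dnmt*-null Epi miR-541-5p had a log2 fold change of 1.75 at E6.5 and -0.04 at E7.5. In *Dnmt3a/3b*-DKO Epi at E7.5 it was -0.71. Since miR-541-5p was picked for its likeness over the same libraries, these values are a description and no independent support.

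Pairs of mutant genotypes were compared to see where one mutation differed from another, in the same fits and so with the same libraries as above. In E7.5 Epi, miR-540-3p was higher in *Dnmt1*-KO than in *Dnmt3a/3b*-DKO (log2 fold change 2.38 ± 0.22 (SE), edgeR adjusted p = 3.32e-06) and lower in *Dnmt*-null than in *Dnmt1*-KO (log2 fold change -1.74 ± 0.25 (SE), edgeR adjusted p = 0.00025). It was the only member called between the last 2, where 10.9% of all miRNAs were. Against *Dnmt3a/3b*-DKO, *Dnmt1*-KO also had higher miR-673-5p (log2 fold change 0.70 ± 0.12 (SE), edgeR adjusted p = 0.00111) and miR-665-3p (log2 fold change 0.69 ± 0.17 (SE), edgeR adjusted p = 0.0149), so that 3 members were called, with 9.82% of all miRNAs. The call of miR-665-3p was lost without *Dnmt1*-KO replicate 2 (adjusted p = 0.0607) and without *Dnmt3a/3b*-DKO replicate 2 (0.0622).

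Compared with *Dnmt3a/3b*-DKO, E7.5 Epi of *Dnmt*-null had 3 higher members, with 16.4% of all miRNAs called. These were miR-770-5p (log2 fold change 1.05 ± 0.23 (SE), edgeR adjusted p = 0.00493), miR-673-5p (log2 fold change 0.49 ± 0.12 (SE), edgeR adjusted p = 0.0115) and miR-337-5p, the 5′ strand of the hairpin just before *Mir540*. miR-337-5p stood at 491, 366.7 and 268 CPM in *Dnmt*-null and 148, 126.8, 174 and 157 in *Dnmt3a/3b*-DKO, with no overlap (log2 fold change 1.16 ± 0.27 (SE), edgeR adjusted p = 0.00735). In E6.5 Epi, miR-540-3p was higher in *Dnmt*-null than in *Dnmt3a/3b*-DKO (log2 fold change 1.82 ± 0.43 (SE), edgeR adjusted p = 0.0378), with 1.22% of all miRNAs called. That call was lost in 11 of 16 fits without 1 library (adjusted p up to 0.122), and kept without *Dnmt3a/3b*-DKO replicate 1, *Dnmt*-null replicate 1 or 4, or control replicate 1 or 2. It was also lost with no filter on low counts (adjusted p = 0.2935) and with only the 2 groups compared (0.2948). In E7.5 Exe, miR-673-5p was higher in *Dnmt1*-KO than in *Dnmt3a/3b*-DKO (log2 fold change 0.83 ± 0.19 (SE), edgeR adjusted p = 0.0292), with 1.68% of all miRNAs called. It was lost without control replicate 1, *Dnmt1*-KO replicate 1, 3 or 4, or *Dnmt3a/3b*-DKO replicate 1 or 3 (adjusted p 0.05002 to 0.15). Also without it were the fits with no filter on low counts (adjusted p = 0.0922) and with only the 2 groups compared (0.103). In the 7 other pairs, with 70 tests of members, edgeR called 0 and 11 had an unadjusted p under 0.05. Of the tests of all miRNAs, edgeR called 1.21%, and 9.97% had an unadjusted p under 0.05. DESeq2 called 5 of the 70, and its share over all miRNAs is not given.

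Whether *Dnmt*-null acted differently on members in Epi and in Exe was tested as the difference of the 2 effects within each stage. At E6.5 edgeR and DESeq2 called 0 members and 1 had an unadjusted p under 0.05, against 0% and 12.1% of all miRNAs. At E7.5 no member was called by edgeR, DESeq2 or unadjusted, against 5.1% and 17.9% of all miRNAs. For miR-540-3p the difference was -0.72 ± 0.47 (SE) at E7.5 and 0.27 ± 0.68 at E6.5. A change called in one tissue and not in the other is therefore not shown to differ between them.

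In WT AG-haESCs the members held 0.0980% of the counts, a smaller share than in any natural embryo library. They held 0.00608% in O48 and 0.00200% in the line labelled 408, whose genotype the labels do not give and which was not tested. In O48, 7 members were lower than in WT, where edgeR called 13.7% of 773 miRNAs. All 10 had an unadjusted p under 0.05, for which the share over all miRNAs is not given. miR-665-3p stood at 464, 488 and 474 CPM in WT, 28.6, 31.5 and 37.1 in O48 and 9.12, 11.6 and 11.8 in 408 (O48 against WT, log2 fold change -3.85 ± 0.24 (SE), edgeR adjusted p = 1.65e-05). miR-673-5p stood at 205, 161 and 171 CPM in WT and 15.1, 7.37 and 10.1 in O48 (log2 fold change -4.005 ± 0.31 (SE), edgeR adjusted p = 5.63e-05). miR-540-3p stood at 67.9, 70.2 and 69.2 CPM in WT and 1.81, 6.72 and 3.86 in O48 (log2 fold change -4.03 ± 0.44 (SE), edgeR adjusted p = 0.000403). For each of these the 2 lines lay far apart.

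Also lower in O48 were miR-493-5p (log2 fold change -3.80, edgeR adjusted p = 0.000491), miR-337-5p (-4.44, 0.00257) and miR-673-3p (-6.46, 0.00951). miR-337-3p was at 0 in all O48 libraries and averaged 7.72 CPM in WT, so it was at least 14.2-fold lower, taking 3 counts per library as the floor (edgeR adjusted p = 0.00637). miR-770-5p (-4.32, 0.0565), miR-770-3p (-4.34, 0.101) and miR-493-3p (-2.98, 0.153) did not pass the adjusted threshold with edgeR. DESeq2 called all 10, again with no share over all miRNAs given. The members' median was -4.18, against -0.28 over all miRNAs. Epi markers summed to 924 to 1670 CPM in O48 against 3659 to 3914 in WT, and Exe markers to 2943 to 4048 against 5271 to 5533. Endoderm sums were 1047 to 1157 against 3054 to 3348.5 CPM, and pluripotent sums, higher in O48, 67149 to 79191 against 58621 to 60976. Their part in the changes of the members in O48 was not tested.

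The 2 libraries labelled Mir-6KO go against that label. Per the study's text, this line carries deletions in the genes of 6 miRNAs, *Mir540* among them, made in DKO cells. The targeted miR-540-3p stood at 1102 and 1002 CPM in them, against 1.81, 6.72 and 3.86 in O48. The other targets miR-127-3p (mean 40291 CPM), miR-541-5p (20719) and miR-409-3p (15822) stood at 567, 211 and 136.2 CPM on average in O48. let-7b-5p had 29.5 to 59.6 CPM in them against 3.11 to 21.6 in O48, and miR-369-3p 29.9 to 46.3 against 6.58 to 21.9, so that all 6 targets lay above O48. In E7.5 SC Mir-6KO;*Dnmt*-null embryos, described below, the means of the same 5, in this order, were 44064, 26352, 19112, 27.1 and 119 CPM. All 10 members were higher in the libraries labelled Mir-6KO than in O48, with 52.1% of all miRNAs called. miR-540-3p had a log2 fold change of 7.48 ± 0.51 (SE), with an edgeR adjusted p of 8.79e-06. miR-337-3p, at 0 in O48, was at least 69.4-fold higher by the same floor. In these 2 libraries the miR-302 cluster sum was 239330 to 268000 CPM, against 3659 to 3914 in WT AG-haESCs, and the list of miRNAs of pluripotent cells summed to 10510 to 12117 CPM against 58621 to 60976. Their log2 CPM over 858 miRNAs had a median Pearson's r of 0.90 and 0.89 with the E7.5 SC control libraries, and 0.70 and 0.69 with O48, values that share each library's depth. Directions drawn from them are therefore those of the libraries labelled Mir-6KO and are not read as an effect of the deletions.

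In SC embryos edgeR called no member between genotypes within the main table. At E6.5 miR-540-3p stood at 2023, 1773 and 674 CPM in WT, 2029.7, 1978 and 2073 in DKO and 2564, 2468 and 2889.7 in *Dnmt*-null. miR-665-3p stood at 2952, 4862 and 1433 CPM in WT, 3879, 4368 and 3718 in DKO and 3778, 7186 and 4768 in *Dnmt*-null. WT replicate 3 stands apart, the lowest for both, and its Epi markers summed to 21252 CPM against 195380 and 214510 in the other 2 WT libraries. Among 461 miRNAs, no member was called by edgeR or DESeq2, or unadjusted, in DKO against WT, with 0.217% and 13% of all miRNAs called, or in *Dnmt*-null against WT, with 1.52% and 18.9%. The counts by edgeR were also 0 without WT replicate 3.

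DKO;*Dnmt*-null embryos, counted in a second table that lists 895 miRNAs, were compared with DKO, with the 609 miRNAs that it does not list set to 0. miR-540-3p stood at 2258, 2100.0 and 2167 CPM, within the range of the other SC groups. There were 3 members called, where 35.3% of 603 miRNAs were. miR-493-5p was higher, at 139, 113 and 104 against 68.4, 63.2 and 77.5 CPM (log2 fold change 0.71 ± 0.20 (SE), edgeR adjusted p = 0.0108), and was lost without DKO replicate 2 or DKO;*Dnmt*-null replicate 1 (adjusted p 0.0584 and 0.162). miR-493-3p (log2 fold change -0.48 ± 0.17 (SE), edgeR adjusted p = 0.039) and miR-665-3p (log2 fold change -0.23 ± 0.08 (SE), edgeR adjusted p = 0.0362) were lower. miR-493-3p was lost in 5 of 6 fits without 1 library, all but that without DKO replicate 2 (adjusted p up to 0.155). miR-665-3p was lost in 4 of 6, and kept without DKO replicate 3 or DKO;*Dnmt*-null replicate 1 (adjusted p up to 0.173). With no filter on low counts miR-493-3p (adjusted p = 0.0903) and miR-665-3p (0.0875) were lost too. The members' median of -0.08 turned to 0.01 when the *Dlk1-Dio3* miRNAs were left out of the scaling factors. Table and genotype cannot be told apart here. Totals were 177142 to 1366522 counts in DKO;*Dnmt*-null and 2150520 to 2425038 in DKO. Epi markers summed to 130120 to 147050 CPM against 177970 to 196780, and Exe markers to 21600 to 27200 against 18003 to 20135. Blood sums were 763 to 943 CPM against 202 to 268, and endoderm sums 2540 to 3504.5 against 1592 to 1953. Their part in the 3 calls was not tested.

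At E7.5, Mir-6KO;*Dnmt*-null SC embryos were compared with SC control. Per the study's text these controls were made from DKO AG-haESCs, and the deletions were heterozygous, so that a second copy of *Mir540* was not cut. miR-540-3p stood at 1488, 1132 and 1199 CPM in Mir-6KO;*Dnmt*-null and 1769.8, 1429.8 and 1274 in control, with overlapping libraries (log2 fold change -0.47 ± 0.19 (SE), edgeR adjusted p = 0.335). edgeR and DESeq2 called 0 members and 1 had an unadjusted p under 0.05, against 3.08% and 12.3% of 585 miRNAs.

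**Figure D5:**
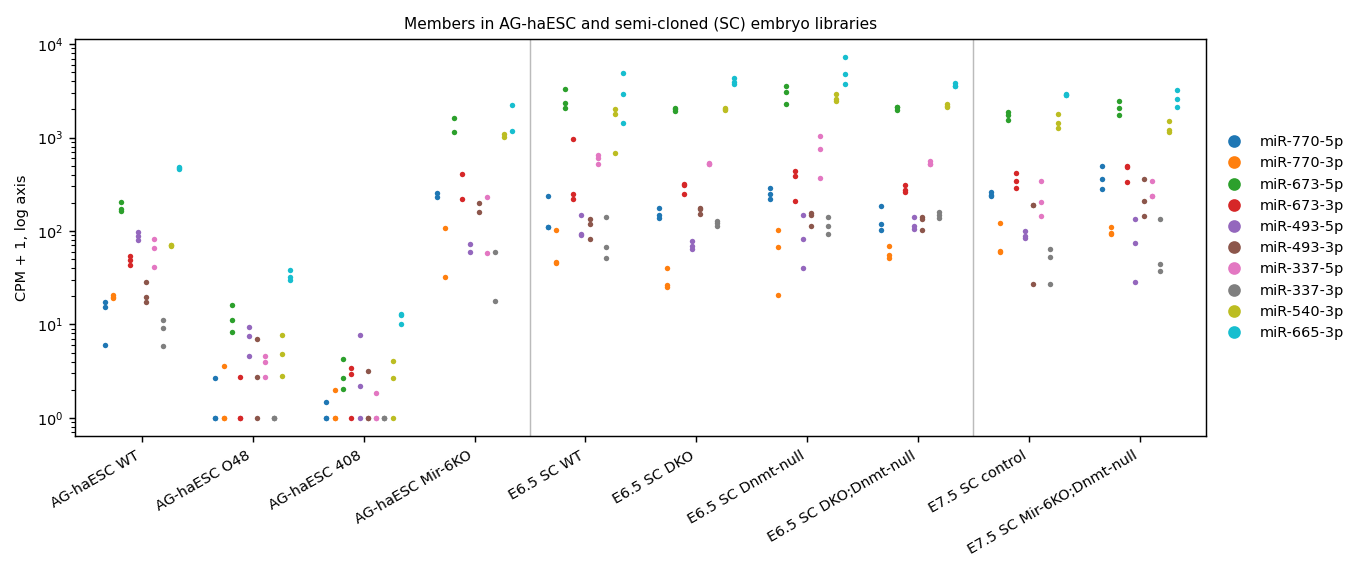
Levels of the members (CPM + 1, log axis) in each AG-haESC and semi-cloned embryo library, with groups along the horizontal axis and one colour per member. The 2 libraries labelled Mir-6KO lie with the semi-cloned embryos, with miR-540-3p at 1002 and 1102 CPM against 1.81 to 6.72 in O48.

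The arms of 1 hairpin share a precursor, so their ratio was followed beside their levels. In natural embryos the 5p arm exceeded the 3p arm in all 62 libraries for *Mir770* (mean log2 ratio of 3p to 5p -2.57 ± 1.30, SD) and for *Mir673* (-2.42 ± 0.83, SD). For *Mir493* the 3p arm was the higher one in 22 of the 58 libraries with at least 10 counts over both arms (-0.55 ± 1.75, SD), and for *Mir337* in 10 of 62 (-0.84 ± 1.30, SD). Of 124 ratios compared between groups by two-sided exact permutation tests, none passed an adjusted p of 0.05 (lowest 0.472) and 6 had an unadjusted p under 0.05. The smallest p that these tests can give is 0.0286 with 4 libraries against 4 or 3, and 0.1 with 3 against 3, and 14 ratios sat at it. After adjustment over 124 ratios, a few ratios at these smallest values could not pass 0.05. The lack of calls therefore does not show that the ratios are alike between groups.

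Members did not all vary together. Over the 62 natural embryo libraries, which share groups and depth, the highest Pearson's r of log2 CPM between 2 members was 0.69, for miR-493-5p and miR-337-3p, followed by 0.65 for miR-770-5p and miR-673-5p. The lowest was -0.36, for both strands of *Mir337*. Within groups, with each group's mean taken off, the first of these was 0.69, the second fell to 0.18 and that of *Mir337* was -0.45, and the lowest was -0.47, for both strands of *Mir770*. miR-493-5p, miR-337-3p and miR-770-3p were each at 0 in E6.5 Epi *Dnmt*-null replicate 1, the library with the fewest counts. The part of low counts in these correlations was not tested. Of 648 miRNAs compared, the closest to the members' mean were miR-323-3p (r 0.77), miR-300-3p (0.75) and miR-1193-3p (0.72), all 3 from *Dlk1-Dio3*.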

How the data were processed

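CAS-seq small RNA counts of 91 libraries were analysed. Per the labels and methods, the authors used fastp 0.20.1 for trimming and Bowtie 1.2.1.1 for alignment (build GRCm38), and deposited whole-number counts per mature miRNA. Counts came as a table of 88 libraries and a second table of 3; an earlier copy of the main table (90 columns, 88 identical, 2 of no sample here) was not used, and tables of comparisons were not used. Totals ran from 45242 to 26970637 counts. The 10 members and all lists were chosen with earlier results of these data known. Groups came from the labels. Within each tissue and stage, or cell or embryo set, all groups shared one fit (edgeR 4.0.16 quasi-likelihood test, R 4.3.3, TMM, filterByExpr), and p-values were adjusted by Benjamini-Hochberg over all miRNAs tested. A member was called at an adjusted p under 0.05. Shares of all miRNAs are those of edgeR, so counts by DESeq2 have none beside them. All 10 members were examined in every comparison, with the rest of the locus as counts, the other deleted miRNAs, and the 3 miRNAs most like the members by Pearson's r of log2 CPM. Alternatives were DESeq2 1.42.0, RLE scaling, scaling without *Dlk1-Dio3* miRNAs, no filter, a mean count of at least 10, a replicate block, only the 2 groups compared, the study's thresholds (log2 fold change over 0.5, unadjusted p under 0.05), leaving out each library and, added later, leaving out libraries that stand apart. The test was tested on simulated data. No 2 libraries of a group were copies (118 pairs, lowest chi-square per degree of freedom 4.2). Replicate numbers paired samples by correlation only in E6.5 SC DKO against WT (r 0.14 to 0.20 over 3 pairs), where the block changed no call.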

Additional observations from a re-analysis of the deposited data

Results flagged for a closer look

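Each member was examined within each group of 4 libraries. Of 135 such sets of 4 values, 12 had a library outside Dixon's limit, and chance flags about 1 in 20. In E6.5 Epi *Dnmt*-null replicate 1, a library of few counts, miR-770-3p, miR-493-5p and miR-337-3p were each at 0 CPM, where the other libraries held 210 to 284, 222 to 270 and 124 to 171. Also at 0 was miR-337-3p in E6.5 Exe control replicate 1 (others 64.7 to 115).

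Lower than the rest of their groups were miR-337-5p in E6.5 Exe *Dnmt*-null replicate 3 (40.04 CPM, others 211 to 245), miR-673-3p in E6.5 Exe *Dnmt1*-KO replicate 3 (10.2 CPM, others 195 to 298), miR-665-3p in E6.5 Exe *Dnmt1*-KO replicate 4 (1508 CPM, others 2641 to 2681) and in E7.5 Exe *Dnmt*-null replicate 4 (1462 CPM, others 2418 to 2673), and miR-493-3p in E7.5 Exe control replicate 2 (57.2 CPM, others 129 to 140.2).

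Higher than the rest were miR-540-3p in E6.5 Epi *Dnmt3a/3b*-DKO replicate 1 (481 CPM, others 154 to 187), miR-673-3p in E6.5 Epi *Dnmt3a/3b*-DKO replicate 3 (690.4 CPM, others 422 to 430.4) and miR-673-5p in E7.5 Epi *Dnmt3a/3b*-DKO replicate 1 (1887 CPM, others 1642 to 1662).

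The *Dnmt*-null effect on miR-540-3p in Epi differed between the stages, by -3.12 on the log2 scale (E7.5 minus E6.5), in a test added because that crossing had been seen, so that it restates the observation and is no independent support.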

How the results depend on the processing

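Shares of all miRNAs under the other settings here are not given, so differences between settings are not read as results about the members. In natural embryos 24 comparisons of genotypes each tested the 10 members. They gave 22 calls, and 37 with the *Dlk1-Dio3* miRNAs left out of the scaling factors, 48 with DESeq2 and 57 with the study's thresholds. Leaving out 1 library gave 19 to 26. Control tissues and stages gave 4 calls, and 9, 10 and 9 under these settings, 2 with only the groups compared, and 2 to 6 without 1 library, the lowest without E6.5 Epi control replicate 3 or 4. The Epi against Exe difference gave 0 calls and 1 with the study's thresholds. DKO;*Dnmt*-null against DKO gave 3, 1 with no filter, and 1 to 3 without 1 library. miR-540-3p changed sign in E6.5 Exe *Dnmt1*-KO without *Dnmt1*-KO replicate 1 (-0.028, to 0.58 without others) and in E6.5 Epi *Dnmt3a/3b*-DKO without *Dnmt3a/3b*-DKO replicate 1 (-0.37, to 0.39 without others). With the replicate block, genotypes gave 18 calls and the counts of the other families were the same, although among control tissues the call of miR-493-3p at E6.5 was lost (adjusted p = 0.0642); except in E6.5 SC DKO against WT the libraries share only a number. Scaling moved the median of all miRNAs by -0.47 to 0.41, by over 0.1 in 34 of 108 fits. The cause of these shifts was not tested. Among natural embryos the smallest libraries were of E6.5, where depth limits low members. Not every E6.5 library was shallow, with 600821 counts in Epi *Dnmt1*-KO replicate 1.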

Other observations

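The other strands of *Mir540* and *Mir665*, miR-540-5p and miR-665-5p, were in the table but not among the members. In E6.5 Epi *Dnmt*-null libraries, where miR-540-3p reached 1080 CPM, miR-540-5p had at most 7 counts and miR-665-5p was at 0. In WT AG-haESCs miR-540-5p held 4 to 12 counts and miR-665-5p 5 to 27, and both were at 0 in O48 and in the line labelled 408.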
